A study of Homo sapiens with 54 samples.

Results

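Macrophages made from H1, an established human embryonic stem cell line, by a 3D protocol were compared with macrophages made by a 2D protocol, both at day 12, over the whole transcriptome. The comparison used 8 of the 54 samples of the series, chosen by their labels: 4 bulk RNA libraries of 2D cells and 4 of 3D cells. The series title places the 3D cells on porous microscaffolds. The series holds 32 bulk RNA libraries in all, and 9 later 3D libraries whose labels do not name FBS (3 each at days 16, 19 and 23) served below as values outside the comparison. All 8 libraries came from the same line, with total RNA extracted by TRIzol, polyA RNA taken, and libraries built by SMART-seq2. The labels do not say whether replicates were separate cultures, so each p-value reflects the spread among these 8 libraries, which may be technical. Genes were grouped into 66 lists covering adhesion and matrix, metabolism, transporters and channels, transcription factors, and surface receptors.

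A macrophage grips its surroundings through integrins, which link matrix to actin through focal adhesions or podosomes. It fuels itself by glycolysis and by mitochondrial respiration in proportions that differ between states of activation. Its surface carries families of receptors for lipids, dying cells, antibodies and cytokines, and its identity rests on transcription factors led by PU.1, encoded by SPI1.

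Of 13131 genes with a mean of at least 1 TPM, a share of all transcripts scaled to one fixed total per library, 1773 were higher and 3313 lower in 3D at a limma adjusted p under 0.05. That is 38.7% of the genes, 13.5% higher and 25.2% lower, and the median difference over all genes was -0.21 on the log2(TPM + 1) scale. For 5031 genes (38.3%) the 2D and 3D libraries did not overlap, and lack of overlap was a condition for naming most genes below. Scaling each library by its median ratio to the others moved that median to -0.04 and the counts to 2438 higher and 2608 lower. Because the total is fixed, a gene that takes more leaves less for the rest. In 3D, 3 clone-named genes took 5.55% to 10.5% of it, against 0.373% to 0.516% in 2D. Mitochondrially encoded genes took 7.35% to 8.57% in 3D against 4.45% to 4.84% in 2D. Counts for a list are therefore given under both scalings where the direction with more calls differed between them, and changes are read against the median of all genes. In bulk RNA, fewer cells of a type and less RNA per cell cannot be told apart. The sources used here give no read total per library, and no depth could be attached to a TPM. Fewer genes reached 1 TPM in each 3D library (11949 to 12272) than in each 2D library (12693 to 12933). The part of library quality in the differences was not tested.

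Macrophage markers were high in both groups: the 14 markers summed to 9153 to 9856 TPM in 2D and 8868 to 11727 in 3D. AIF1 and TYROBP made up a large part of each sum. Of 13 tested, 5 rose and 2, SPI1 and AIF1, fell. MSR1 was at no more than 1.99 TPM in any library. C1QC was 236 TPM in 3D replicate 4 and 1725 to 2069 TPM in the other 3D libraries. Markers of other blood cells differed. All 11 monocyte markers fell, with sums of 10047 to 11896 against 5125 to 7077 TPM. Megakaryocyte markers summed to 919.9 to 1662 against 189 to 295 TPM. THBS1, not called, was most of that 3D sum, at 151 to 240 TPM against 107 to 263 TPM in 2D. Of 16 megakaryocyte markers tested 12 fell, among them PPBP (298 to 525 against 1.16 to 6.37 TPM), and 1, F13A1, rose. Neutrophil precursor markers summed to 1914 to 3323 against 52.1 to 204 TPM. LCN2, of the neutrophil list, was at 1.95 to 8.74 TPM in 2D and listed at 0 in every 3D library. LTF, CEACAM8, CAMP and ELANE were also listed at 0 in 3D, but at no more than 1.96 TPM in 2D. Erythroid markers summed to 3694 to 4472 against 31.7 to 1755 TPM. Of 13 erythroid markers tested 5 fell and 0 rose (38.5% called, beside 38.7% of all genes). HBZ, an embryonic globin gene that was not called, stood at 4.97 to 317 TPM in 2D and 1.82 to 909 TPM in 3D. Mast cell, basophil and eosinophil markers summed to 393 to 732 TPM in 2D and 28.5 to 460.2 TPM in 3D, where replicate 4 stood apart. CLC, an eosinophil and basophil protein, was 228 TPM in that library, listed at 0 in the other 3D libraries and 72.4 to 117 TPM in 2D. Of 7 tested in this list 5 fell and 1, HPGDS, rose. HPGDS stood at 10.0 to 14.2 TPM in 2D and 24.4 to 46.4 TPM in 3D. The part of these cells in the differences below was not tested.

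Among integrins, more genes fell than rose in 3D. Of 15 integrin subunits tested (26 in the table), 2 rose and 8 fell, under either scaling, with a median difference of -0.71. That is 66.7% called, beside 38.7% of all genes. ITGAX, the alpha chain of the complement receptor CD11c/CD18, lies at chr16:31355176-31382999 (RefSeq, GRCh38.p14). Its level was 58.2, 59.9, 66.5 and 79.3 TPM in the 2D libraries and 16.7, 25.6, 18.2 and 13.5 TPM in the 3D libraries. No 3D library reached the lowest 2D library, and the difference was -1.80 (SE 0.20, limma adjusted p 0.000106). ITGAM, the alpha chain of CD11b/CD18, fell from 51.7 ± 6.50 to 23.9 ± 7.66 TPM (SD, n = 4 each, as throughout). ITGB1, the shared beta chain of many matrix-binding integrins, was lower by mean, at 43.5 against 17.2 TPM, but its groups overlapped: 3D replicate 4 stood at 29.9 TPM, above the lowest 2D library at 28.7 TPM. ITGA4, which pairs with ITGB1 or ITGB7 to bind VCAM1, rose from 3.27 to 9.12 TPM, and ITGB5, a partner of the alpha-v chain, from 8.32 to 17.7 TPM. ITGB7 fell from 86.2 to 36.4 TPM. ITGAX and ITGAM also mark monocytes, whose marker sums fell.

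Proteins that tie integrins to actin split. Of 36 focal adhesion genes tested, 3 rose and 11 fell (38.9% called, beside 38.7% of all genes), and of 48 actin and podosome genes 12 rose and 16 fell, or 13 and 13 under median-ratio scaling. FLNA, the actin cross-linker filamin A, stood at 439, 535, 375 and 533 TPM in 2D and at 120, 150, 124 and 60.4 TPM in 3D, a fall of 2.10 (SE 0.25, limma adjusted p 0.000174) with no overlap. RSU1, which binds the integrin-linked kinase complex through LIMS1, was the largest rise of the list: 6.28, 22.8, 11.9 and 11.9 TPM in 2D against 46.8, 66.0, 69.4 and 80.8 TPM in 3D. The 3D libraries all stood above the 2D libraries, with a difference of 2.33 (SE 0.32, limma adjusted p 0.000381). LIMS1, its partner, rose too, from 31.04 to 70.9 TPM.

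Branched-actin genes moved in both directions. ACTR3, a subunit of the Arp2/3 complex that starts new branches, rose from 14.0 ± 1.72 to 62.4 ± 21.3 TPM. WAS, which activates that complex, fell from 48.1 to 15.6 TPM, and CTTN, which steadies the branches, fell from 11.2 to 0.81 TPM. MYO1G, a membrane-bound myosin of blood cells, fell from 81.1 to 16.1 TPM. EZR and TPM4, a membrane linker and a tropomyosin, rose from 12.5 to 29.1 and from 65.5 to 135 TPM. The GTPases RHOA and RAC2 rose, from 138 to 270 and from 177 to 349 TPM, while ARHGEF1, an exchange factor that switches RHOA on, fell from 204 to 53.1 TPM. PIEZO1, a stretch-gated channel, fell from 340 ± 18.7 to 103 ± 22.5 TPM, and SRF, a factor that reads actin state, from 13.8 to 6.06 TPM. CD44, the hyaluronan receptor, was 61.9 ± 9.84 TPM in 2D and 65.1 ± 14.4 TPM in 3D, with overlap (limma adjusted p 0.83).

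Secreted and cell-contact genes moved in both directions. SPP1, the matrix protein osteopontin, had 3185 to 4212 TPM in 2D and 5940 to 9170 TPM in 3D. LGALS3, a galactose-binding lectin, rose from 68.2 to 199.9 TPM and CD48, a contact receptor, from 58.8 to 164 TPM. SDC2, a heparan sulfate proteoglycan, rose from 0.825 to 9.67 TPM. F11R, a junction molecule, fell from 15.8 to 3.16 TPM, EMILIN1, an elastin-associated protein, from 18.2 to 1.92 TPM, and ADAM15, a membrane metalloproteinase, from 139 to 37.3 TPM. MMP12, macrophage elastase, was listed at 0, 0.09, 0 and 0 TPM in 2D and at 2.18, 8.37, 7.44 and 7.10 TPM in 3D. Of 15 collagens and laminins tested, 3 rose and 5 fell. COL1A2 and COL3A1, fibrillar collagens, rose from 0.515 to 9.34 and from 0.035 to 6.03 TPM, unevenly over the 3D libraries (COL3A1 at 0.29, 10.7, 8.20 and 4.92 TPM). Stromal markers, which include both, summed to 11.8 to 24.8 TPM in 2D and 10.3 to 85.9 TPM in 3D. Of 8 stromal markers tested 3 rose and 1, TAGLN, fell. TAGLN stood at 7.98 to 19.8 TPM in 2D and 1.75 to 6.74 TPM in 3D. DCN, a fibroblast marker that was not called, was 0 in 3D replicate 1 and 34.1 TPM in replicate 2. The part of stromal cells was not tested.

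**Figure D1:**
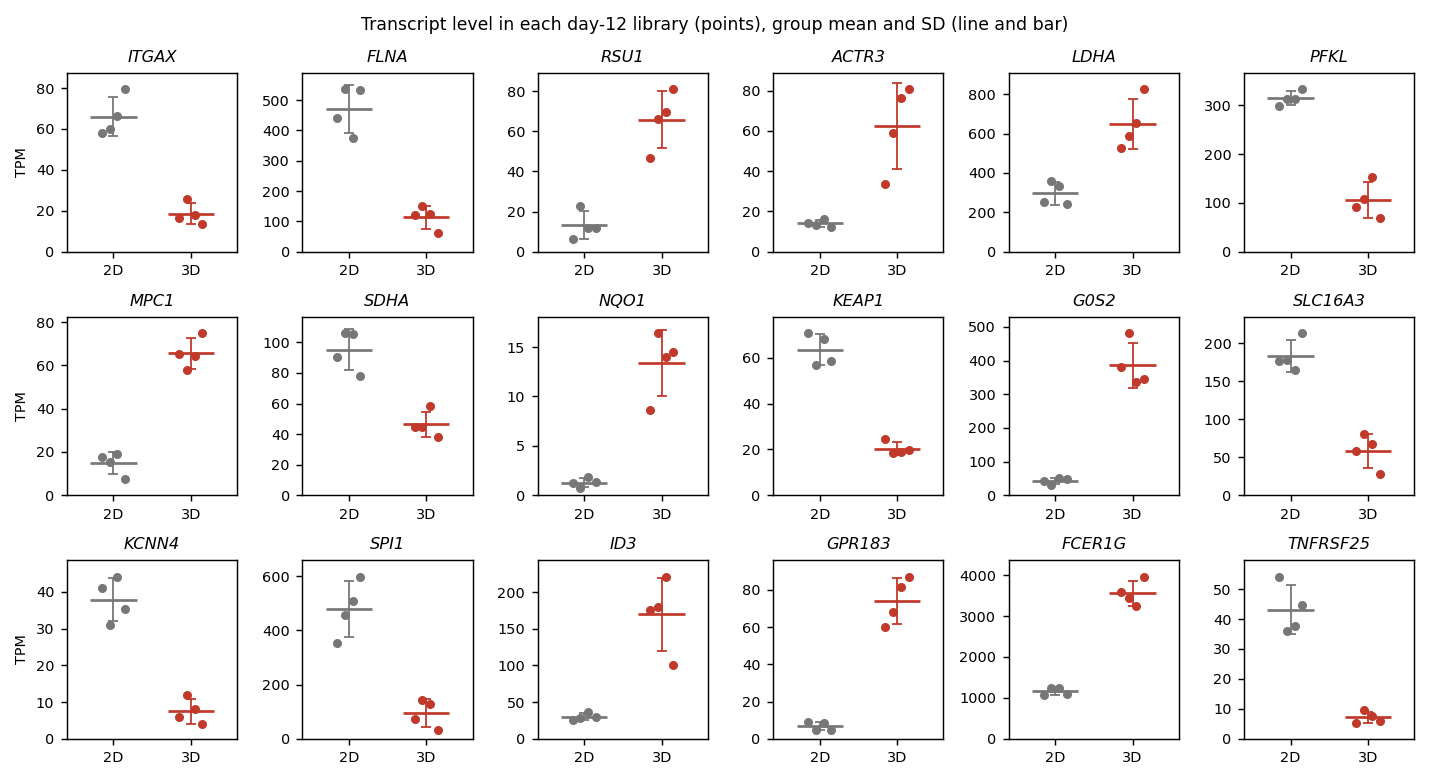
TPM of 18 genes in each 2D (grey) and 3D (red) library at day 12, with the mean (horizontal line) and SD (bar) of 4 libraries. In all 18 panels the 2D and 3D points do not overlap, for example 58.2 to 79.3 against 13.5 to 25.6 TPM for ITGAX. These 18 genes were chosen among genes without overlap, which was so for 38.3% of all genes tested.

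Of 487 metabolic genes tested, 136 rose and 135 fell, which is 55.6% called beside the 38.7% of all genes. With median-ratio scaling 183 rose and 94 fell. Of 25 glycolysis genes 4 rose and 11 fell, with a median of -0.41, or 5 up and 8 down under median-ratio scaling. PFKL, the liver-type phosphofructokinase that commits glucose to glycolysis, stood at 298, 313, 314 and 333 TPM in 2D and 91.8, 108, 154 and 68.3 TPM in 3D, a fall of 1.63 (SE 0.21, limma adjusted p 0.000239). HK3, a hexokinase of myeloid cells, fell from 89.3 to 29.8 TPM and PFKFB4, which makes an activator of phosphofructokinase, from 26.6 to 7.53 TPM. LDHA, which turns pyruvate to lactate, went the other way: 252, 361, 334 and 245 TPM in 2D against 529, 586, 653 and 824 TPM in 3D. That was a rise of 1.12 (SE 0.17, limma adjusted p 0.00065). PGAM1, phosphoglycerate mutase, rose from 222 to 447 TPM. HK2 was 8.95 TPM in 2D and 6.81 TPM in 3D (limma adjusted p 0.148).

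The tricarboxylic acid cycle and pyruvate entry list leaned upward. Of 28 genes, 17 rose and 3 fell, with a median of 0.50 against -0.21 over all genes, and 21 rose and 3 fell under median-ratio scaling. Without 3D replicate 2, 11 rose. MPC1, a subunit of the carrier that takes pyruvate into mitochondria, had 17.6, 15.2, 18.9 and 7.71 TPM in 2D and 65.3, 57.8, 64.4 and 74.9 TPM in 3D, a rise of 2.13 (SE 0.25, limma adjusted p 0.000144). DLD, the shared dehydrogenase subunit of the pyruvate and oxoglutarate complexes, rose from 7.33 to 21.0 TPM. Subunits of one enzyme moved apart: SDHD, a membrane anchor of succinate dehydrogenase, rose from 30.98 ± 3.67 to 112 ± 18.5 TPM, whereas SDHA, its catalytic subunit, fell from 95.1 ± 13.5 to 46.3 ± 8.44 TPM. PC, which makes oxaloacetate from pyruvate, fell from 52.7 to 16.2 TPM, and OGDH, of the oxoglutarate complex, from 31.9 to 18.6 TPM.

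Subunits of the respiratory chain, which work as fixed assemblies, also moved apart. Of 38 complex I subunits, 8 rose and 12 fell, but 14 rose and 6 fell under median-ratio scaling, so the balance of this list turned with the scaling. Without 3D replicate 3, 5 rose. NDUFB7 had 1846, 1548, 1734 and 1606 TPM in 2D and 701, 665, 598 and 572 TPM in 3D. NDUFA13 fell likewise, from 1241 to 456 TPM, while NDUFV2, which carries an iron-sulfur cluster, rose from 206 to 402 TPM. Of 20 subunits of complexes III and IV, 6 rose and 5 fell, but 9 rose and 0 fell under median-ratio scaling (limma). The count that fell was also 0 without 2D replicate 1, 2D replicate 2, 3D replicate 2 or 3D replicate 3, and 2 without 2D replicate 4. UQCRC2 and COX5A rose, from 37.5 to 73.3 and from 659 to 1307 TPM. Of 16 ATP synthase genes tested, 6 rose and 6 fell (75% called, beside 38.7% of all genes), or 9 and 4 under median-ratio scaling. The alpha subunit ATP5F1A rose from 172 to 396 TPM while the beta subunit ATP5F1B, with which it forms the catalytic head, fell from 1214 to 826 TPM. The difference for ATP5F1B was -0.55, or -0.34 under median-ratio scaling (limma adjusted p 0.0412). ATP5IF1, the inhibitor of ATP synthase, fell from 1257 to 654 TPM.

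**Figure D2:**
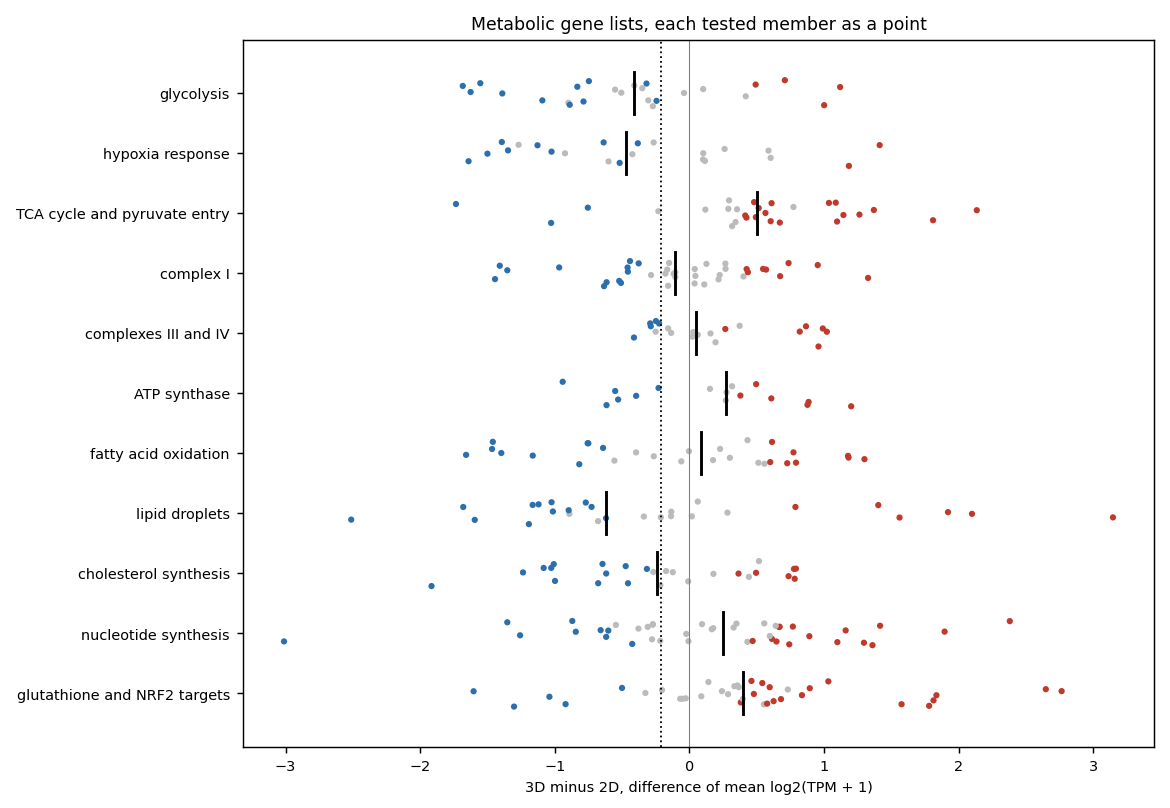
Difference of mean log2(TPM + 1), 3D minus 2D, for each tested member of 11 metabolic lists: red rose, blue fell, grey did not pass, black bars are list medians and the dotted line is the median of all genes at -0.21. The tricarboxylic acid cycle (median 0.50) and glutathione (0.40) lists lie to the right of that line and lipid droplets (-0.62) to the left.

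Antioxidant genes leaned upward as well. Of 37 glutathione and NRF2-target genes, 17 rose and 5 fell, with a median of 0.40, and 21 rose and 4 fell under median-ratio scaling. NQO1, a quinone reductase switched on by NRF2, had 1.27, 0.71, 1.85 and 1.29 TPM in 2D and 8.66, 16.4, 14.0 and 14.4 TPM in 3D. The lowest 3D library was above the highest 2D library, with a difference of 2.65 (SE 0.27, limma adjusted p 6.1e-05). SOD2, mitochondrial superoxide dismutase, rose from 69.4 ± 7.38 to 477 ± 50.02 TPM, and is also a target of inflammatory signals. BLVRA, biliverdin reductase, rose from 9.98 to 37.2 TPM. KEAP1, which marks NRF2 for destruction, fell from 63.6 to 20.3 TPM. The peroxidases PRDX5 and PRDX2 fell, from 1180 to 479 and from 850.4 to 411 TPM.

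Lipid genes went both ways. Of 27 lipid droplet and triglyceride genes 6 rose and 12 fell, or 6 and 7 under median-ratio scaling. G0S2, an inhibitor of the triglyceride lipase PNPLA2, had 31.1 to 50.6 TPM in 2D and 336 to 482 TPM in 3D, a rise of 3.15 (SE 0.18, limma adjusted p 1.9e-06). PNPLA2 itself fell from 69.4 to 12.8 TPM. CD36, a receptor for oxidised lipoprotein and fatty acids, rose from 37.4 to 147 TPM, and PLTP, a phospholipid transfer protein, from 65.6 to 178 TPM. APOE fell from 287 to 38.03 TPM, and CYP27A1, which makes oxysterols, from 30.1 to 3.88 TPM. The regulators SREBF2 and MLXIPL, of sterol and of carbohydrate-driven lipid synthesis, fell from 62.8 to 16.9 and from 26.4 to 2.39 TPM. Of 26 cholesterol synthesis and uptake genes 6 rose and 12 fell, with MVD falling from 131 to 55.0 TPM. In fatty acid oxidation 8 of 28 genes rose and 9 fell, or 10 and 7 under median-ratio scaling, and 5 rose without 2D replicate 1. ACADM and ETFA rose (11.3 to 27.5 and 38.3 to 96.1 TPM) and ACADVL, for longer chains, fell from 375 to 118 TPM.

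Of 42 nucleotide synthesis and salvage genes, 15 rose and 9 fell (57.1% called, beside 38.7% of all genes), with a median of 0.25. Serine, glycine and folate genes gave 7 of 20 up and 2 down (45% called), with a median of 0.44. Under median-ratio scaling they gave 8 and 0 (limma). Amino acid metabolism gave 8 of 24 up and 5 down (54.2% called). RRM2, the S-phase subunit of ribonucleotide reductase, had 17.3 to 26.5 TPM in 2D and 51.6 to 193 TPM in 3D, while HPRT1 and ADA, of purine salvage, rose from 13.5 to 53.9 and from 40.9 to 112 TPM. CDA, cytidine deaminase, fell from 31.96 to 3.04 TPM. Among amino acid and one-carbon genes, GLUL, glutamine synthetase, rose from 49.995 to 149.7 TPM and PSAT1, of serine synthesis, from 4.64 to 12.8 TPM. ASL, of the urea cycle, fell from 226 to 49.2 TPM. In the pentose phosphate pathway TKT fell from 533 to 237 TPM and TALDO1 rose from 204 to 330 TPM. LTC4S, leukotriene C4 synthase, fell from 143 to 18.6 TPM, and PLA2G7, which breaks down platelet-activating factor, rose from 4.35 to 21.7 TPM.

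Among hypoxia-response genes more fell than rose, as over all genes. Of 22 tested, 2 rose and 9 fell, with a median of -0.47 against -0.21 over all genes. That is 50% called, beside 38.7% of all genes (13.5% up and 25.2% down). Under median-ratio scaling 3 rose and 6 fell, beside 2438 up and 2608 down of 13030 genes. Without 2D replicate 2, 5 fell. HIF1A, the oxygen-sensitive factor, was 15.3 TPM in 2D and 16.4 TPM in 3D (limma adjusted p 0.721). EGLN3, an oxygen-sensing hydroxylase induced by that factor, fell from 6.57 to 1.96 TPM, and DDIT4, an inhibitor of mTORC1 signalling, rose from 38.8 to 90.0 TPM. Because these genes share a known regulator, 3 of their promoters are shown, each 250 bases before and 50 after the start (RefSeq, GRCh38.p14), with the core hypoxia-response letters ACGTG, on either strand, in capitals. PPFIA4 and P4HA1 fell and DDIT4 rose. PPFIA4 stood at 3.62 to 7.94 TPM in 2D and 0.45 to 3.59 TPM in 3D (limma adjusted p 0.0171, or 0.0448 with the replicate block). P4HA1, a collagen prolyl hydroxylase, was chosen after its values were seen. It stood at 24.5 to 26.4 TPM in 2D and 13.02 to 19.1 TPM in 3D (adjusted p 0.0103, limma).
PPFIA4, chr1:203026241-203026540, plus strand: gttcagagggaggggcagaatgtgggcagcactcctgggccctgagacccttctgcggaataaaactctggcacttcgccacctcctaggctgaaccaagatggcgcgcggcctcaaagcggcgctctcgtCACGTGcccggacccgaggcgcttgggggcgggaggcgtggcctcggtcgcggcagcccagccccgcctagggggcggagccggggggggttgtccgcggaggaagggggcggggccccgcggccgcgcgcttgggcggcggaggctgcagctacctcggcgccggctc
P4HA1, chr10:73096817-73097116, minus strand: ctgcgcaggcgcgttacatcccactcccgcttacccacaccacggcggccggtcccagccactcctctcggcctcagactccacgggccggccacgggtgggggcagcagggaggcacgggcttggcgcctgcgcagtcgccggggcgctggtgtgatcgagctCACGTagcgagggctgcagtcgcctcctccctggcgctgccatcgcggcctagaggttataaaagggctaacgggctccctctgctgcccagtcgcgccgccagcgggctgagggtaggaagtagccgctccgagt
DDIT4, chr10:72273674-72273973, plus strand: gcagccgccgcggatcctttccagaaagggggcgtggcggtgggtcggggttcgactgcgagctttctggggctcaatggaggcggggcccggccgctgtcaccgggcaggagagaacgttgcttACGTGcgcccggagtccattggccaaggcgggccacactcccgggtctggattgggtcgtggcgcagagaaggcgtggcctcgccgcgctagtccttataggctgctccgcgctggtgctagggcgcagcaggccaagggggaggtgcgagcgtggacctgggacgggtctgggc
In PPFIA4 the overlapping matches on both strands begin at -119 and -118 from the start, in P4HA1 at -86 and in DDIT4 at -125. The letters occurred in the windows of 5 of the 6 falling list members with a window, 1 of 2 rising and 4 of 9 that did not pass. A gene can have several windows, and was counted when any of them held the letters. Counted so, the letters occurred for 32.6% of the 9437 tested genes with a window. Counted per window, they occurred in 21.4% of the table's 35116 windows. Over all genes with a window the letters were found for 36.7% of those that rose and 30.9% of those that fell. Another 6 motifs were searched on both strands: the antioxidant element TGACNNNGC, the cyclic AMP element TGACGTCA, the NRF1 site GCGCATGCG, the E-box CACGTG, the metal element TGCNCNC and the sterol element TCACNCCAC. The E-box contains the hypoxia letters. For these 6, the shares for genes that rose or fell lay between -1.40 and 2.00 percentage points from the share of all tested genes with a window. The share of genes with each motif was looked at in every list before these 3 promoters were chosen. A match is a description of letters only.

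Of 310 transport genes tested, 38 rose and 84 fell, or 51 and 65 under median-ratio scaling. The 39.4% called lay near the 38.7% of all genes, and the median of -0.16 near the -0.21 of all genes. SLC16A3, the lactate exporter MCT4, had 177, 178, 166 and 214 TPM in 2D and 58.4, 80.5, 66.9 and 27.4 TPM in 3D, a fall of 1.73 (SE 0.28, limma adjusted p 0.000998), opposite to LDHA. SLC2A5, a fructose carrier, fell from 49.8 to 18.5 TPM. SLC2A1, the ubiquitous glucose carrier, fell from 15.995 to 10.9 TPM (limma adjusted p 0.0308), but at an adjusted p of 0.151 under median-ratio scaling it no longer passed. Its relative SLC2A3 was 72.9 and 55.4 TPM (limma adjusted p 0.116). SLC6A6, a taurine carrier, rose from 3.42 to 10.1 TPM and SLC35B1, which brings ATP into the endoplasmic reticulum, from 26.5 to 76.7 TPM.

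Carriers of the mitochondrial inner membrane leaned upward, with 10 of 38 up and 7 down (44.7% called) and a median of 0.34. Over all genes 38.7% were called, 13.5% up and 25.2% down. SLC25A4, an ADP/ATP exchanger, rose from 1.20 to 6.84 TPM and SLC25A51, which carries NAD, from 1.38 to 6.12 TPM. SLC25A42, a coenzyme A carrier, fell from 11.7 to 1.06 TPM. Of 24 ABC transporters 0 rose and 9 fell in the limma fit, and 2 rose and 7 fell under median-ratio scaling. The 37.5% called in the limma fit lay near the share of all genes. ABCC3, an organic anion exporter, fell from 16.035 to 1.52 TPM, ABCA7, a lipid exporter, from 43.6 to 6.21 TPM, and ABCB6, of porphyrin transport, from 19.4 to 4.69 TPM. ABCA1, which loads cholesterol on apolipoproteins, was 1.32 and 2.25 TPM (limma adjusted p 0.178). Within the V-ATPase, the lysosomal proton pump, ATP6V1C1 and ATP6AP2 rose (5.66 to 18.7 and 39.2 to 75.1 TPM) and ATP6V0A1 fell from 217 to 79.6 TPM. Potassium, calcium, TRP and chloride channels had 1 of 53 up and 20 down, with a median of -0.64. The 39.6% called also lay near the share of all genes. KCNN4, a calcium-gated potassium channel, fell from 37.9 ± 5.88 to 7.50 ± 3.40 TPM. ORAI3, a store-operated calcium channel, fell from 112 to 32.2 TPM and MCOLN1, a lysosomal calcium channel, from 90.0 to 31.6 TPM. Among calcium pumps ATP2A3, of the endoplasmic reticulum, fell from 26.1 to 7.72 TPM and ATP2B1, of the plasma membrane, rose from 8.69 to 20.7 TPM.

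Of 475 transcription factor genes tested, 34 rose and 119 fell, which is 32.2% called beside the 38.7% of all genes, or 49 and 90 under median-ratio scaling. SPI1 stood at 352, 456, 510.1 and 599 TPM in 2D and 74.8, 142, 130 and 32.6 TPM in 3D, a fall of 2.51 (SE 0.40, limma adjusted p 0.000879) with no overlap. CEBPB, a bZIP factor of myeloid cells, fell from 113 to 20.8 TPM, RUNX1 from 68.2 to 19.2 TPM, LYL1, a factor of blood progenitors, from 167 to 22.8 TPM and FOXP1 from 37.5 to 7.15 TPM. PPARG, a lipid-sensing nuclear receptor, rose from 4.95 to 11.7 TPM. TFEB and USF2, E-box factors of which the first drives lysosome genes, fell from 44.4 to 11.3 and from 122.7 to 27.4 TPM. MITF, of the TFEB family, was 2.56 and 3.96 TPM (limma adjusted p 0.188), NR1H3, the liver X receptor alpha, 32.8 and 23.1 TPM (limma adjusted p 0.159) and KLF6 249 and 256 TPM (limma adjusted p 0.815). PPARD, a relative of PPARG, fell from 26.5 to 9.37 TPM.

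Of 39 basic helix-loop-helix genes tested, 6 rose and 15 fell (53.8% called, beside 38.7% of all genes). ID3 and ID2, which block the DNA binding of such factors, were among the rises. ID3 had 25.6, 28.8, 36.5 and 29.4 TPM in 2D and 176, 180, 221 and 101 TPM in 3D, a rise of 2.41 (SE 0.23, limma adjusted p 4.04e-05). ID2 rose from 174 to 469 TPM and HES1, a Notch-regulated repressor, from 1.48 to 17.7 TPM. MAFF, a small MAF protein, rose from 6.60 to 36.5 TPM, CREM, of cyclic AMP signalling, from 18.9 to 60.4 TPM, and TGIF1, a repressor of TGF-beta signalling, from 3.78 to 23.2 TPM. The interferon factors IRF3 and STAT2 fell, from 103 to 38.9 and from 57.6 to 18.0 TPM, and KLF13 from 56.2 to 17.2 TPM. Of 268 zinc finger genes with a ZNF number, 10 rose and 50 fell. The 22.4% called lay below the 38.7% of all genes. ZNF410 rose from 3.19 to 17.0 TPM and ZNF395 fell from 35.3 to 4.09 TPM.

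Receptor families differed in balance. Of 271 receptor genes tested 42 rose and 88 fell (48.0% called), or 60 and 72 under median-ratio scaling. The TNF receptor superfamily gave 0 of 20 up and 11 down in the limma fit (0 and 10 under median-ratio scaling), with a median of -0.81. TNFRSF25, a death receptor, had 54.2, 36.1, 37.7 and 44.5 TPM in 2D and 5.17, 9.57, 7.68 and 6.09 TPM in 3D, a fall of 2.45 (SE 0.22, limma adjusted p 2.8e-05). TNFRSF12A, the TWEAK receptor, fell from 57.3 to 11.8 TPM and TNFRSF4, OX40, from 44.8 to 9.81 TPM. Plexins, semaphorins and their partners gave 1 of 24 up and 8 down (37.5% called, beside 38.7% of all genes), and 5 down without 2D replicate 4. The rise was NRP1, a co-receptor for semaphorins and VEGF, which rose from 32.4 to 94.7 TPM. SEMA4D fell from 28.8 to 6.10 TPM and PLXNB2 from 154 to 56.03 TPM. CSF2RA, the GM-CSF receptor alpha chain, fell from 91.7 ± 3.19 to 28.4 ± 1.79 TPM and CLEC12A, an inhibitory lectin, from 5.85 to 0.785 TPM, beside the fall of the monocyte markers. ADGRE5 and ADGRG3, adhesion GPCRs, fell from 57.3 to 22.4 and from 84.0 to 16.7 TPM.

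Of 61 GPCRs for lipids, nucleotides and amines or with a GPR number, 16 rose and 20 fell, or 21 and 15 under median-ratio scaling. GPR183, an oxysterol receptor, had 8.91, 4.93, 8.53 and 4.90 TPM in 2D and 59.9, 68.3, 81.3 and 87.2 TPM in 3D, a rise of 3.29 (SE 0.23, limma adjusted p 6.36e-06). HCAR3, a receptor for hydroxylated fatty acids, was listed at 0 in all 4 2D libraries and at 14.9, 12.6, 13.9 and 10.4 TPM in 3D. FFAR3, for short-chain fatty acids, was listed at 0.11, 0, 0.41 and 0 TPM in 2D and at 6.39 to 11.4 TPM in 3D. HCAR3 and FFAR3 each have a near-identical neighbour gene (HCAR2 and GPR42), and the sources used here do not say how reads were shared between such copies. PTGIR, the prostacyclin receptor, fell from 14.5 to 3.33 TPM and F2R, a thrombin receptor, from 9.16 to 1.59 TPM. P2RY12, an ADP receptor, was 0.357 and 3.08 TPM with overlap (limma adjusted p 0.0711).

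Receptors for antibody, sialic acid and dying cells included several rises at high level. FCER1G, the signalling chain shared by Fc receptors, had 1057, 1251, 1235 and 1105 TPM in 2D and 3586, 3433, 3247 and 3966 TPM in 3D, a rise of 1.61 (SE 0.09, limma adjusted p 1.9e-06). FCGR2A rose from 76.3 to 135 TPM, and FCGRT, the neonatal Fc receptor, fell from 926 to 506 TPM. CD300H and CD300C rose from 0.858 to 16.5 and from 16.9 to 41.9 TPM, LAIR1, a collagen-binding inhibitory receptor, from 60.1 to 114 TPM, while CD300LF fell from 37.9 to 11.9 TPM. SIGLEC9 and SIGLEC5 rose from 38.5 to 76.0 and from 1.75 to 7.46 TPM, and SIGLEC16 fell from 29.9 to 6.41 TPM. MERTK, which binds phosphatidylserine through bridging proteins, rose from 3.85 to 9.96 TPM while GAS6, one of those bridges, fell from 87.9 to 18.0 TPM. TIMD4, a direct phosphatidylserine receptor, rose from 6.42 to 53.9 TPM, and CALR, an eat-me signal and endoplasmic chaperone, fell from 1697 to 349 TPM. MRC1, the mannose receptor, and MARCO, a scavenger receptor, rose from 25.3 to 55.5 and from 12.3 to 39.4 TPM. STAB1 and SORL1 fell from 1266 to 442 and from 13.3 to 1.72 TPM.

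**Figure D3:**
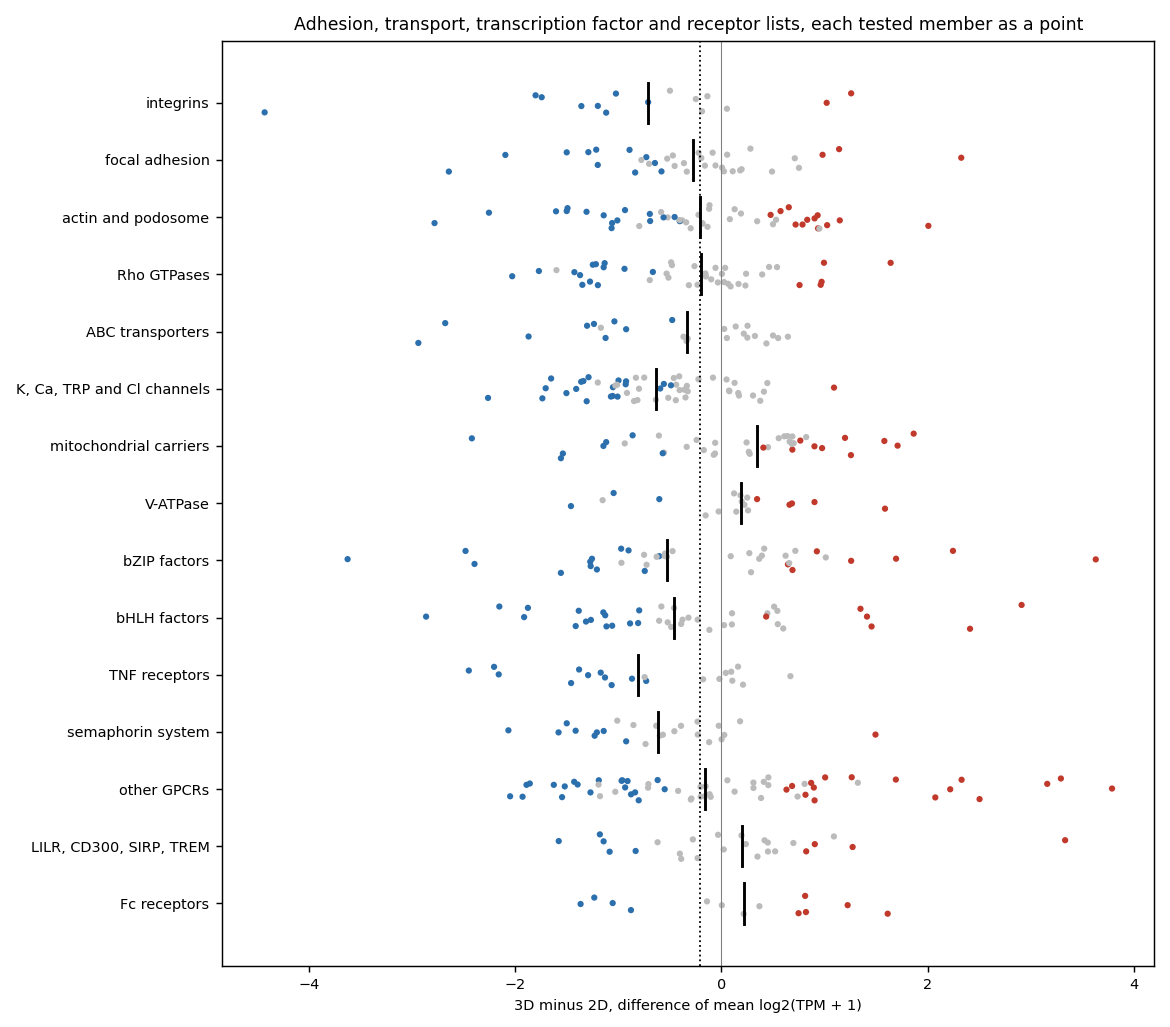
Difference of mean log2(TPM + 1), 3D minus 2D, for each tested member of 15 lists of adhesion, transport, transcription factor and receptor genes: red rose, blue fell, grey did not pass, black bars are list medians and the dotted line is the median of all genes at -0.21. TNF receptors (0 up, 11 down) and channels (1 up, 20 down) lie mostly to the left, and GPCRs (16 up and 20 down, or 21 and 15 under median-ratio scaling) spread furthest to the right. Called were 55% of TNF receptors, 39.6% of channels and 59% of GPCRs, beside 38.7% of all genes.

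Outside the lists, the largest rises at 5 TPM or more included RGS2, a brake on G protein signalling, with 1.92 to 7.30 TPM in 2D and 61.5 to 83.4 TPM in 3D. SELENOT, a selenoprotein of the endoplasmic reticulum, rose from 14.4 to 175 TPM and NPY, a neuropeptide, from 0.698 to 20.8 TPM. TNIP3, a partner of the NF-kB inhibitor A20, was listed at 0 in all 4 2D libraries and at 7.24 to 11.2 TPM in 3D. The largest falls included ENHO, which encodes the secreted peptide adropin, from 117 to 151 TPM in 2D to 2.04 to 6.84 TPM in 3D. CMTM5 fell from 49.7 to 0.645 TPM, and EHBP1L1, of membrane traffic, from 384 to 24.2 TPM. TFRC, the transferrin receptor, was 11.8 and 17.5 TPM (limma adjusted p 0.0981) and passed under median-ratio scaling (adjusted p 0.0394). GPNMB, of lipid-laden macrophages, was 1.54 and 1.59 TPM with overlap (limma adjusted p 0.879).

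Genes that rose and genes that fell differed in the base composition of their promoters. Windows were matched for 82.9% of the 10782 protein-coding genes tested. In the fifth of these genes with the lowest window GC (27.7% to 56.7%) 18.0% rose and 21.1% fell, with a median difference of -0.05. In the fifth with the highest GC (73.3% to 94.0%) 10.9% rose and 31.5% fell, with a median of -0.30. Transcript sequence was not used here, and the part of base composition in the differences was not tested.

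Later 3D libraries, outside the comparison, gave the level of the same genes in cells kept longer. They were collected on other days, so the values stand side by side only. Of the 1403 genes that rose without overlap and at 5 TPM or more, all 9 later libraries were above the 2D range for 308, and of 2659 that fell all 9 were below it for 1382. NQO1 stood at 24.4 to 34.2, 12.2 to 38.5 and 29.1 to 36.1 TPM at days 16, 19 and 23, all above 2D. MARCO reached 1178 to 1252 TPM and MMP12 37.6 to 50.1 TPM at day 23. G0S2, TIMD4, ID3 and LDHA were in none of the 9 above the 2D range: TIMD4 was listed at 0 in all 3 libraries of day 23 and LDHA stood at 64.2 to 77.1 TPM. SPI1, PFKL and TNFRSF25 were below the 2D range in all 9. FLNA was below it at days 16 and 19 (40.2 to 95.9 TPM) and at 891 to 1081 TPM at day 23. ITGB1 and STAB1 were below it in none of the 9.

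**Figure D4:**
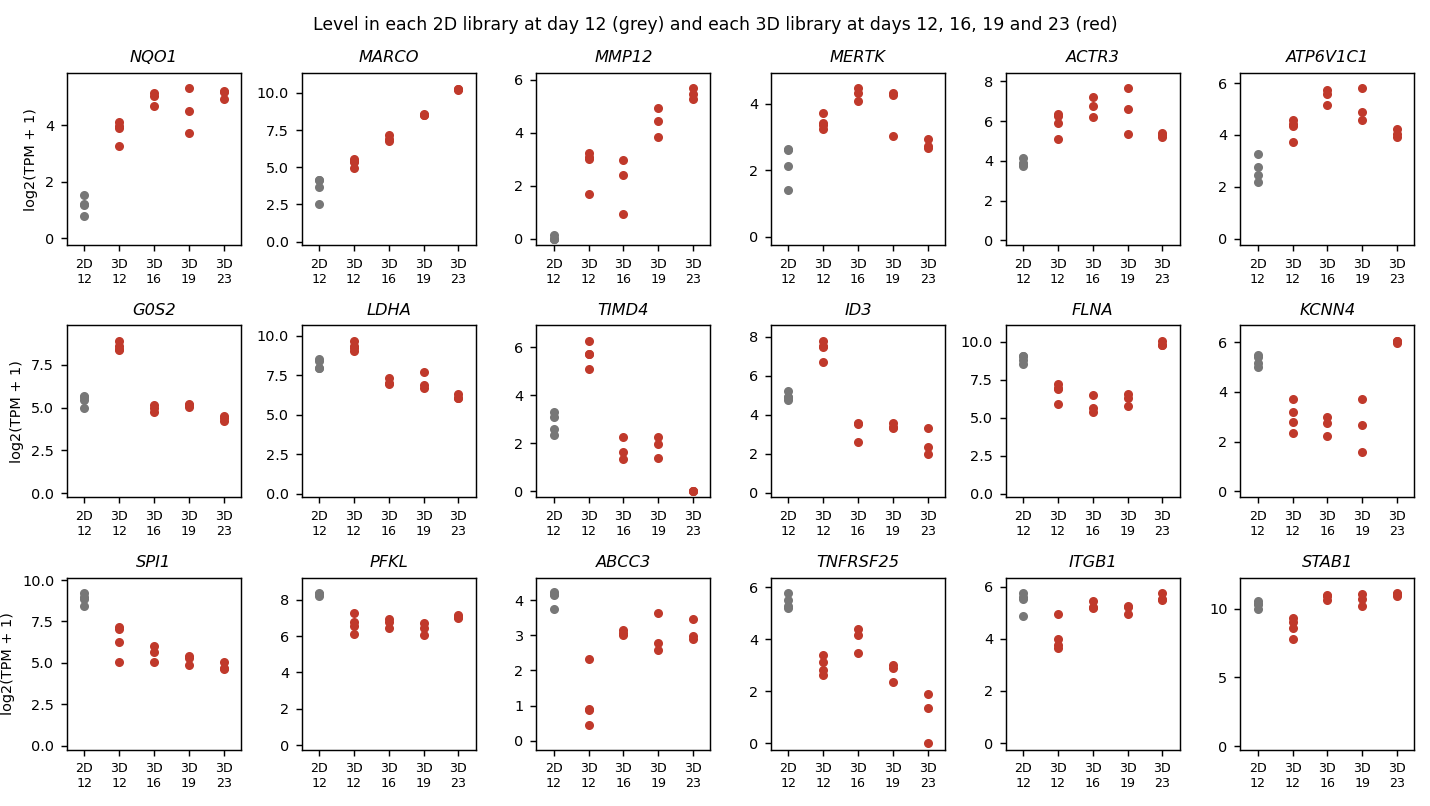
log2(TPM + 1) of 18 genes in each 2D library at day 12 (grey) and each 3D library at days 12, 16, 19 and 23 not labelled FBS (red). NQO1 and MARCO stay above and SPI1 and PFKL below the 2D points at every 3D day, while G0S2, TIMD4 and ID3 stand above them at day 12 and not at the later days.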

How the data were processed

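The authors deposited a table of TPM for 58735 genes in 32 bulk libraries. Per the labels, RNA was polyA-selected and prepared by SMART-seq2. Per the submitters' processing notes the builds were hg38 and GRCh38 and the tools of the whole series included Trim Galore 0.4.4, HISAT2 and HTSeq 0.11.1; the step that produced TPM is not named there. Single-cell and chromatin files were not used.

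Here TPM was transformed to log2(TPM + 1), genes whose 8 libraries averaged 1 TPM or more were kept, and 3D was tested against 2D with limma 3.58.1 in R 4.3.3 (eBayes with trend, Benjamini-Hochberg over all genes, threshold 0.05). A fold on this scale understates changes of low genes. The fit was also run on simulated data of 13046 genes, 92 given a log2 change of 1 and 93 a log2 change of 2. It recovered 22.8% of the former and 73.1% of the latter, with 5 false calls. Far fewer genes were changed there than the 5086 called here, and no shift of the fixed total was simulated. Those rates therefore need not hold for this comparison.

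Members and lists were chosen with earlier results of these data known. Up to 3 rises and 3 falls per list were eligible for naming, by size, among called genes at 5 TPM or more with no overlap between groups. The 10 largest rises and 10 largest falls outside marker and inflammatory lists and 22 fixed genes were added. From these 340 genes, 171 were kept after their values were seen, and some others are not reported here. In the table, 58207 identifiers matched the gene name table. Coordinates, windows and motifs come from RefSeq, matched by symbol. Alternatives changed the pseudocount (0.1), the low-value filter (none, or 5 TPM), the scaling, the trend, library weights, the replicate block and the libraries included.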

Additional observations from a re-analysis of the deposited data

Results flagged for a closer look

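For each gene described, each group of 4 libraries was checked for 1 library whose gap to its nearest neighbour took nearly all of the group's range. Of 348 groups checked, which include 8 of library-wide measures, 26 had such a library, 13 in 2D and 13 in 3D. Chance flags about 1 in 20 groups. Of the 13 in 3D, 7 were in replicate 4.

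In 3D replicate 4, HES1 stood at 34.52, ITGA4 at 11.53, LYL1 at 35.63 and ATP5F1B at 936.21 TPM, above the other 3 libraries, and MCOLN1 at 9.17, PLXNB2 at 29.39 and RUNX1 at 10.45 TPM, below them. In 3D replicate 3, ABCC3 (4.01), CMTM5 (2.58) and PSAT1 (18.68 TPM) were high. In 3D replicate 2, FCGRT (602.21) and HK2 (7.66 TPM) were high. In 3D replicate 1, RAC2 was low at 293.72 TPM.

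In 2D replicate 1, ABCC3 (12.54), ITGB5 (5.41), PTGIR (11.01) and SDHD (25.49 TPM) were low. In 2D replicate 2, PRDX5 (1092.52), SORL1 (11.83) and ZNF395 (18.57 TPM) were low and MMP12 was the single value above 0, at 0.09 TPM. In 2D replicate 3, ADAM15 (86.35) and NR1H3 (20.04 TPM) were low, and ETFA (49.15) and SPP1 (4212.48 TPM) high. In 2D replicate 4, STAT2 was high at 66.36 TPM. No call of a gene listed here was lost when any 1 library was left out, and NR1H3, not called, passed without 2D replicate 3.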

How the results depend on the processing

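The counts of genes up (1773) and down (3313) stayed within 1.5 times under every alternative run: from 1394 to 2438 up and from 2608 to 3331 down, with 0 genes called in opposite directions. Leaving out 1 library gave 1394 to 1683 up and 2930 to 3148 down. The replicate block gave 1608 up and 3021 down; equal replicate numbers correlated at -0.008 to 0.035, so the numbers were not taken as pairs. Of the 160 called genes described, 159 kept their call under median-ratio scaling, 159 with the replicate block and 159 in all 8 fits without 1 library. The exception in each was SLC2A1, which lost its call in 9 alternatives (adjusted p 0.0542 to 0.151). Most of these genes were chosen as large calls without overlap, so their counts do not speak for all calls. Of all 5086 calls, 4381 were made again in the same direction after median-ratio scaling. When the replicate block was fitted, 4478 were. Of the 340 genes first drawn up, 327 were called, and 300 of those kept the call whichever library was left out. NR1H3 passed without 2D replicate 3 (adjusted p 0.0286), P2RY12 without 3D replicate 1 (0.0283), SLC2A3 without 3D replicate 2 (0.034) and TFRC under 3 alternatives.

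Some list counts moved by over 1.5 times. Solute carriers outside mitochondria that rose went from 16 to 8 without 3D replicate 3. Under median-ratio scaling complex I went from 12 to 6 down and from 8 to 14 up, falling lipid droplet genes from 12 to 7, V-ATPase genes that rose from 5 to 8 and zinc finger genes that rose from 10 to 18. Complexes III and IV went from 5 down to 0 under that scaling, with eBayes without trend, with the replicate block and without 4 of the 8 single libraries. At 5 TPM, falling hypoxia genes went from 9 to 5, falling collagens and laminins from 5 to 2, mitochondrial carriers that rose from 10 to 4, GPCRs that rose from 16 to 10 and falling zinc finger genes from 50 to 31; fewer genes were tested there. Falling semaphorin-system genes went from 8 to 4 with no filter and to 5 without 2D replicate 4, complex I genes that rose from 8 to 5 without 3D replicate 3, and fatty acid oxidation genes that rose from 8 to 5 without 2D replicate 1. TPM keeps no read depth, so no limit could be set for genes listed at 0.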
